A study of Rattus norvegicus with 64 samples.

Results

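The mitochondrial genome of the rat encodes subunits of respiratory complexes I, III, IV and V, and the 6 genes described here are those listed for complexes III, IV and V. They are Co1 (ENSRNOG00000034234), Co2 (ENSRNOG00000030371) and Co3 (ENSRNOG00000030700) of complex IV, Atp6 (ENSRNOG00000031979) and Atp8 (ENSRNOG00000033299) of complex V, and Cytb (ENSRNOG00000031766) of complex III. They were taken by their Ensembl IDs from tables that list 32623 IDs, and all 6 were present in each table. Bulk RNA-Seq was performed on tissue punches of the dorsal hippocampus (HPCd) and the nucleus accumbens (ACB) from the same 32 Sprague Dawley rats, which gave 64 libraries. Rats of the ACE-K groups drank a daily ration of acesulfame potassium, a low-calorie sweetener, of 15 mg/kg from postnatal day 26. Rats of the control (CTL) groups were given water by the same route, and all rats had chow and water and were collected at postnatal day 80. The estrus phase of females was not tracked. Each combination of treatment and sex held 8 rats, numbered C91 to C106 for males and C107 to C122 for females. The question was whether sweetener intake through adolescence changed the adult transcriptome of these regions.

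Complex III passes electrons from ubiquinol to cytochrome c, complex IV passes them on to oxygen, and complex V uses the resulting proton gradient to make ATP. Cytb is the only subunit of complex III that the mitochondrial genome encodes, Co1 holds the site where oxygen is reduced, Co2 receives electrons from cytochrome c, and Co3 completes the core of complex IV. Atp6 forms part of the proton channel of complex V, and Atp8 is a small membrane subunit of the same complex. All 6 genes are transcribed from the same strand as part of long precursor RNAs, and the reading frames of Atp8 and Atp6 overlap on a single mRNA. Neurons rely on these complexes for most of their ATP, and mitochondrial transcripts are abundant in brain RNA.

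The deposited values were raw counts per gene, and the 2 tables differed in more than region. The median total was 20509054 counts per library in the HPCd and 331011 in the ACB, which is 62.0 times less. Only 1 ID was among the 10 most counted in both regions. The ID with the most counts in the ACB, ENSRNOG00000029042, held 18.6% of ACB counts and 0.00924% of HPCd counts. All 6 subunits were among the 10 most counted IDs of the HPCd and none was among those of the ACB, where Co1 ranked 15th and Atp8 146th. The library kit keeps the strand of the RNA, and the strand setting of the counting is not given in the sources used here. Whether the ACB counts come from the strand of these mRNAs or from the opposite one was not tested. If they come from the opposite one, the ACB values below are not levels of these mRNAs. The paper gives a single approximate number of reads per sample for all libraries, of the order of the HPCd totals. The ACB totals are thus counted reads and need not be the depth of sequencing. Why fewer reads were counted in the ACB was not tested. Region, number of counted reads and table therefore cannot be told apart in any comparison of HPCd with ACB. Ambiguous reads where Atp8 and Atp6 overlap, and reads shared with nuclear copies of mitochondrial DNA, make single counts uncertain. The IDs could not be paired with symbols here, so that markers of cell types and of the 2 regions were not analysed. In these punches, fewer cells of a type and less RNA per cell cannot be told apart.

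In the HPCd the levels of the 6 subunits varied little between rats. Levels are given as CPM, counts scaled to a common library size, after TMM normalization over the 32 rats of a region. They are not divided by gene length, so a level of one gene is not compared with that of another. Co1 ranged from 16715 to 20399 in CTL males around a median of 18733, and from 17059 to 21144 in ACE-K males around 18447. In females Co1 ranged from 18096 to 19710 around 19175 in CTL rats and from 17029 to 20751 around 19179 in ACE-K rats. The 4 groups overlapped over most of their range, and the coefficient of variation of Co1 over all 32 rats was 5.70%. Atp8 spread the most, with a coefficient of variation of 7.03%. Its CPM ranged from 3999 to 4977 around 4412 in CTL males and from 3847 to 5094 around 4437 in ACE-K males. In females Atp8 ranged from 4199 to 4828 around 4611 in CTL rats and from 4091 to 5127 around 4687 in ACE-K rats. Atp6 ranged from 8771 to 10335 around 9935 in CTL males and from 8920 to 10530 around 9717 in ACE-K males. In females it ranged from 9135 to 10629 around 9929 in CTL rats and from 8811 to 10774 around 10123 in ACE-K rats. Over all 32 rats, Co2 lay between 7373 and 9157, Co3 between 8556 and 10301 and Cytb between 8350 and 10810. Rat C101 had the lowest level of all 6 subunits among CTL males, and rat C119 had the lowest of all 6 among CTL females.

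**Figure D1:**
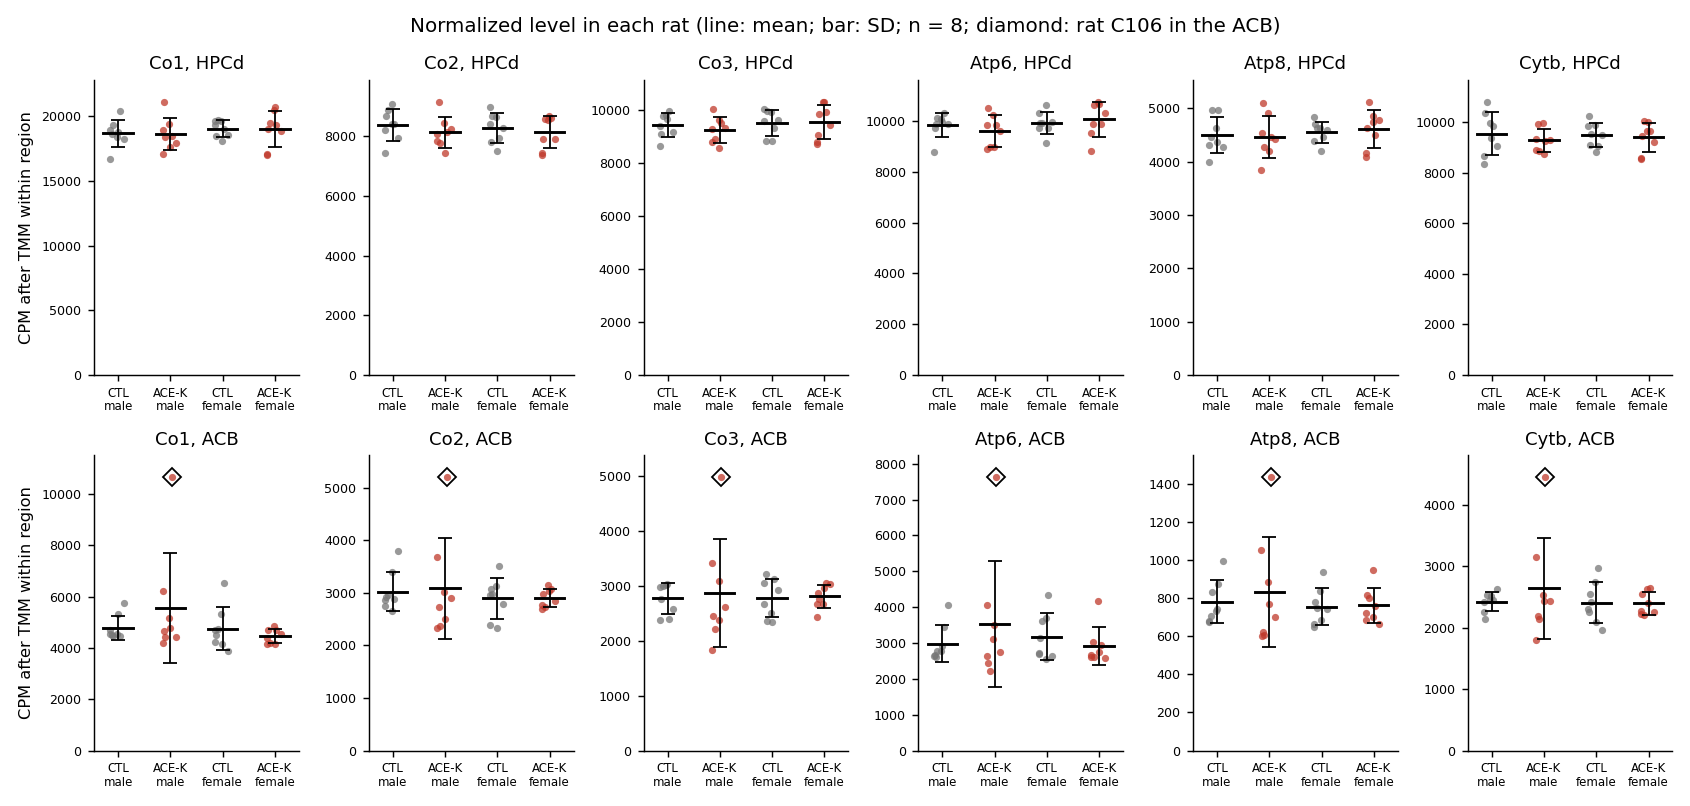
Normalized CPM (linear axis from 0) of each subunit in each rat of the HPCd, upper row, and the ACB, lower row, by treatment and sex, with the mean as a line and the SD as a bar (8 rats per group). HPCd groups overlap around 18845 for Co1 and 4533 for Atp8, and rat C106, the diamond, stands highest in every panel of the ACB.

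In the ACB the same genes spread more, with coefficients of variation up to 31.2% for Atp6, and 20.9% for Atp8. Rat C106, an ACE-K male, held the highest level of all 6 subunits, with 10660 CPM for Co1 and 7623 for Atp6. Co1 in the other groups ranged from 4458 to 5749 around 4545 in CTL males, from 3882 to 6554 around 4605 in CTL females and from 4140 to 4840 around 4474 in ACE-K females. In ACE-K males it ranged from 4215 to 10660 around 4716. Medians of Co1 thus differed far less than the single rats did. Atp6 ranged from 2600 to 4051 around 2786 in CTL males and from 2210 to 7623 around 2933 in ACE-K males. In females Atp6 ranged from 2559 to 4348 around 2935 in CTL rats and from 2595 to 4161 around 2703 in ACE-K rats. Atp8 had the fewest counts, between 186 and 500 per library. Its CPM ranged from 673 to 996 around 739 in CTL males, from 600.5 to 1434 around 734 in ACE-K males, from 651 to 939 around 745 in CTL females and from 663 to 949 around 738 in ACE-K females. Co2 lay between 2330 and 5197, Co3 between 1837 and 4970 and Cytb between 1792 and 4442 over the 32 rats. The library of rat C106 also had the largest total of the ACB, 416869 counts, and the lowest TMM factor, 0.836. Its HPCd library had a factor of 0.999.

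No difference between ACE-K and CTL rats was called for any of the 6 subunits in the HPCd. ACE-K was compared with CTL separately for males and females by the quasi-likelihood method of edgeR, over all IDs that passed a filter on low counts. An ID was called at an unadjusted p under 0.05, the p limit that the study set for suggestive genes, without its limit on fold change. In males 0 of 6 subunits passed, beside 5% of all tested IDs, and in females 0 of 6 passed beside 4.06%. DESeq2 called 0 of 6 in each sex as well. Co2 had the estimate farthest from 0 in each sex. Its log2 fold change was -0.04 in males (SE 0.05, 95% interval -0.15 to 0.07, adjusted p = 0.986) and -0.03 in females (SE 0.05, interval -0.12 to 0.07, adjusted p = 0.995). Taken over the 6 subunits, the 95% intervals spanned -0.16 to 0.12 for males and -0.12 to 0.11 for females. The median log2 fold change of the 6 was -0.03 in males, beside 0.0068 over all tested IDs, and 0.00047 in females, beside 0.0040. With rats left out in turn the median lay between -0.054 and -0.014 for males and between -0.016 and 0.020 for females. With total counts it was -0.024 in females, where all 6 estimates were then below 0.

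In the ACB, too, 0 of 6 subunits passed in males, beside 4.41% of all tested IDs, and 0 of 6 in females, beside 8.46%. DESeq2 called 0 of 6 in each sex. In males the estimates lay between 0.02 for Co2 and 0.23 for Atp6, all above 0, with a median of 0.10 beside -0.0090 over all tested IDs. Atp6 had an SE of 0.17 and an interval from -0.12 to 0.59 (adjusted p = 0.975), and Co1 was at 0.21 (SE 0.14, interval -0.09 to 0.50, adjusted p = 0.975). Without rat C106, 5 of the 6 estimates in males were below 0. Co2 was then at -0.12, Co3 at -0.11 and Atp6 at -0.02, and Co1 stayed above 0 at 0.02. In females the estimates ran from -0.12 for Atp6 (SE 0.10, interval -0.32 to 0.08, adjusted p = 0.816) to 0.02 for Co3 (SE 0.08, interval -0.14 to 0.18, adjusted p = 0.965), with a median of 0.0048 beside -0.0042 over all tested IDs. Rat C118 had the highest Atp6 level among ACE-K females, 4161 CPM, where the other 7 lay between 2595 and 3019. Without it Atp6 was at -0.21 (SE 0.09, adjusted p = 0.583) and passed unadjusted, so that 1 of 6 subunits was called beside 7.56% of all tested IDs. Without CTL rat C113 it was at -0.041 (adjusted p = 0.943), and no other rat left out gave a call.

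**Figure D2:**
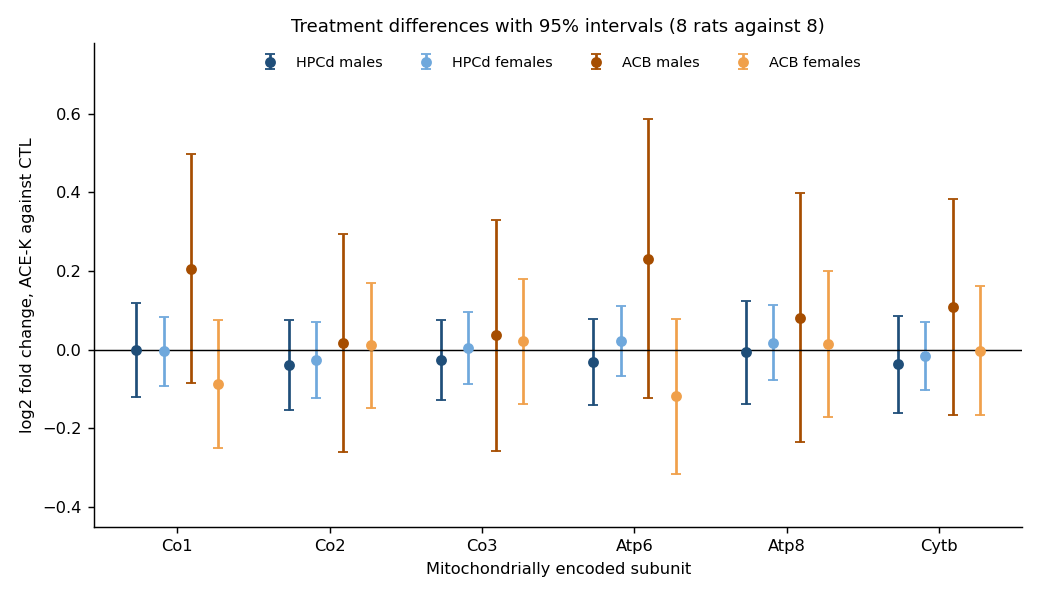
Log2 fold change of ACE-K against CTL rats (vertical axis) for each subunit, in 4 comparisons of 8 rats with 8, with 95% intervals as bars. Every interval contains 0, and those of ACB males are the widest, up to -0.12 to 0.59 for Atp6.

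Fits over both sexes gave no call for a subunit in either region. For treatment across sexes 0 of 6 passed in the HPCd beside 1.84% of tested IDs, and 0 of 6 in the ACB beside 3.43%. For the interaction of treatment with sex 0 of 6 passed in the HPCd beside 8.58%, and 0 of 6 in the ACB beside 8.59%. For sex itself 0 of 6 passed in the HPCd beside 11.8%, and 0 of 6 in the ACB beside 4.1%. Co1 and Atp6 in the ACB came closest. The log2 fold change of Co1 in females against males was -0.16 (SE 0.09, interval -0.34 to 0.0092, adjusted p = 0.999). Its treatment difference in females minus that in males was -0.31 (SE 0.17, interval -0.66 to 0.03, adjusted p = 0.644), and that of Atp6 was -0.37 (SE 0.22, interval -0.80 to 0.06, adjusted p = 0.664). With no filter on low counts, the interaction passed unadjusted for Co1 (adjusted p = 0.721) and Atp6 (adjusted p = 0.653), 2 of 6 beside 6.74% of IDs, and sex passed for Co1 (adjusted p = 0.919), 1 of 6 beside 5.05%. Leaving out rat C106 brought these estimates nearer to 0. Without it the interaction was -0.11 for Co1 and -0.11 for Atp6, and the sex difference of Co1 was -0.06. The 6 estimates of treatment across sexes in the ACB lay between 0.02 and 0.06 with that rat and between -0.07 and -0.02 without it, and 0 of 6 passed in each of these fits without it.

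The share of all gene counts that fell on the 6 subunits together did not pass a test for treatment in any region or sex. In HPCd males the share ranged from 5.63% to 6.32% around a median of 5.93% in ACE-K rats, and from 5.47% to 6.32% around 5.99% in CTL rats. In HPCd females it ranged from 5.47% to 6.42% around 6.04% in ACE-K rats and from 5.82% to 6.65% around 6.11% in CTL rats. The mean difference, ACE-K minus CTL, was -0.046 percentage points in males (two-sided exact permutation test, p = 0.723) and -0.108 in females (exact permutation p = 0.513). In ACB males the share ranged from 1.46% to 2.87% around 1.61% in ACE-K rats and from 1.52% to 1.86% around 1.67% in CTL rats, a mean difference of 0.097 points (exact permutation p = 0.741). Without rat C106 that difference was -0.059 points (exact permutation p = 0.519). In ACB females it was -0.054 points (exact permutation p = 0.573), with shares from 1.45% to 1.82% around 1.61% in ACE-K rats and from 1.49% to 2.13% around 1.64% in CTL rats. The 2 treatments overlapped in every comparison, and the adjusted p over the 4 tests was 0.741 in each. The upper end in CTL females was rat C113, and without it the difference was 0.0097 points.

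Between the regions, the split of counts among the 6 subunits differed most for Atp8 and Co2. A split within one library does not depend on how libraries are scaled to each other. Atp8 held 7.51% ± 0.26 (SD, n = 32) of the counts on the 6 in the HPCd and 4.59% ± 0.35 (SD, n = 32) in the ACB. It was lower in the ACB of 32 of 32 rats, and the lowest HPCd rat, at 6.95%, lay above the highest ACB rat, at 5.31%. Co2 held 13.6% ± 0.37 (SD, n = 32) in the HPCd and 17.5% ± 0.98 (SD, n = 32) in the ACB. It was higher in the ACB of 32 of 32 rats, with no overlap between the HPCd maximum of 14.6% and the ACB minimum of 15.1%. The remaining 4 subunits overlapped between regions. Co1 had means of 31.2% in the HPCd and 28.6% in the ACB and was lower in the ACB of 31 of 32 rats, and Cytb had 15.6% in the HPCd and 14.5% in the ACB, lower in 31 of 32. Atp6 was higher in the ACB of 29 of 32 rats, with means of 16.4% and 18.3%. Co3 was higher in 21 rats and lower in 11, with means of 15.6% and 16.5%. These splits are given as descriptions, and gene length and the different tables apply to them as stated above. Splits among other sets of IDs were not examined, so whether the lack of overlap is particular to these subunits is not known. As CPM of the whole library, a measure unlike a split, 76.2% of tested IDs did not overlap between the regions. Numbers of rats lower or higher rest on the rat numbers in the labels, a pairing for which the counts gave no support of their own.

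**Figure D3:**
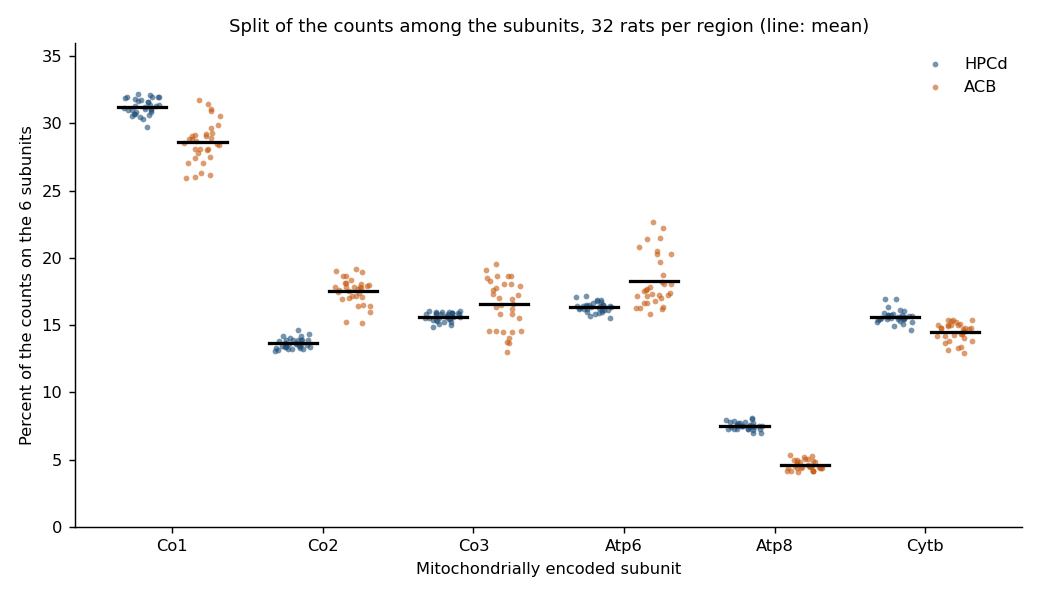
Percent of the counts on the 6 subunits that fell on each of them (vertical axis from 0), with 1 point per rat and the mean as a line, for HPCd and ACB libraries (32 rats each). Atp8 and Co2 do not overlap between regions, with means of 7.51% and 4.59% for Atp8 and 13.6% and 17.5% for Co2.

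The sign of the fitted region difference depended on the scaling of the counts for every subunit but Atp8. As a plain share of gene counts, the 6 held 6.03% ± 0.29 (SD, n = 32) in the HPCd and 1.70% ± 0.26 (SD, n = 32) in the ACB. The highest ACB rat, C106 at 2.87%, and the next at 2.13%, lay below the lowest HPCd rat at 5.47%. Each of the 6 was lower in every ACB library than in every HPCd library as CPM of the whole library, as were 65.1% of all tested IDs, and 76.2% of tested IDs did not overlap in either direction. With the 3 most counted IDs of the ACB left out of the total, the share was 6.07% in the HPCd and 2.46% in the ACB. TMM scaling over all 64 libraries gave factors from 1.79 to 1.99 in the HPCd and from 0.465 to 0.649 in the ACB.

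With these factors, 4 of 6 subunits differed at an adjusted p under 0.05 in edgeR, beside 91.5% of 10682 tested IDs. Of the 6, 3 were called lower in the ACB beside 60.2% of tested IDs, and 1 was called higher beside 31.3%. Atp8 was lower by a log2 fold change of -0.76 (SE 0.05, adjusted p = 1.91e-22), Co1 by -0.18 (SE 0.05, adjusted p = 0.000885) and Cytb by -0.16 (SE 0.05, adjusted p = 0.000647), Co1 and Cytb turning above 0 when HPCd counts were thinned to ACB totals. Co2 was higher by 0.31 (SE 0.05, adjusted p = 8.39e-09), and turned below 0 with total counts and with DESeq2 size factors. Atp6 at 0.12 (SE 0.06, adjusted p = 0.0629) and Co3 at 0.02 (SE 0.05, adjusted p = 0.644) did not pass.

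With total counts in place of TMM all 6 were lower, from -1.47 for Co2 to -2.54 for Atp8, and 6 of 6 passed beside 97.6% of tested IDs. With DESeq2 size factors all 6 were lower, from -0.14 for Co2 to -1.20 for Atp8, and 6 of 6 passed beside 94.8%. With HPCd counts thinned to ACB totals, Co2 was at 0.62, Atp6 at 0.45, Co3 at 0.34, Cytb at 0.16 and Co1 at 0.15, only Atp8 was lower, at -0.45, and 6 of 6 passed beside 87.2%. The median log2 fold change of all tested IDs moved along with the scaling. It was -0.86 with TMM, -1.34 with DESeq2 size factors, -2.77 with total counts and -0.48 with thinned counts. Relative to that median, Co2 stood 1.16 higher with TMM, Atp6 0.98, Co3 0.88, Cytb 0.69, Co1 0.68 and Atp8 0.10. The share of tested IDs that stood as far above the median was not computed. With TMM 31.3% of tested IDs were called higher in the ACB, and so stood farther above the median than Cytb, Co1 and Atp8. A change of scaling moves the IDs and their median together, and the 10 settings rerun the same libraries. Agreement among them is therefore no separate support. Over 10 settings run, Co1, Co2, Co3, Atp6 and Cytb stood above the median of tested IDs in every one. The least was 0.43, for Co1 with no filter on low counts. Atp8 stood between -0.16 and 0.22 of it, and was lower in the ACB than in the HPCd in all 10.

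**Figure D4:**
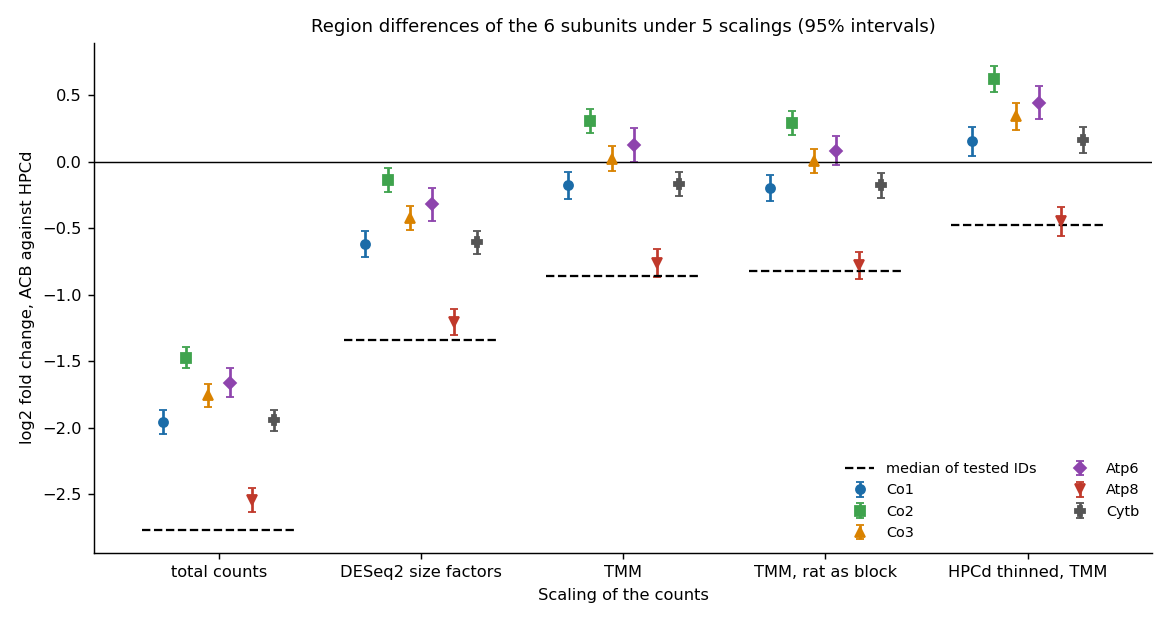
Log2 fold change of ACB against HPCd (vertical axis) for each subunit under 5 ways of scaling the counts, with 95% intervals as bars and the median of all tested IDs as dashed lines. All 6 points shift together with the scaling, Co2 stays the uppermost and Atp8 the lowest, from -2.54 with total counts to -0.45 with thinned counts.

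The ratio of Atp6 to Co3 counts varied widely among the ACB libraries, with an SD of 0.29 on the log2 scale. These genes lie next to each other in the mitochondrial genome, and in the HPCd the log2 ratio of their counts lay between -0.04 and 0.17 in all 32 rats. In the ACB it reached from -0.23 to 0.65, with a gap of 0.23 between 0.25 and 0.48. Above the gap were 9 rats, C91, C92, C96, C105, C106, C109, C113, C117 and C118. They were 2 CTL males, 3 ACE-K males, 3 CTL females and 1 ACE-K female, so that each of the 4 groups held at least 1. The other 23 rats lay at or below 0.25. This ratio was chosen out of 15 pairs after the values were seen, and no test was made of it. Its gap was 0.260 of its range, beside 0.287 for Co2 and Co3 in the ACB and 0.321 for Co1 and Co2 in the HPCd. The total counts of the 9 libraries lay between 255545 and 416869 and those of the other 23 between 280041 and 387284. The part of depth or library preparation in this ratio was not tested.

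**Figure D5:**
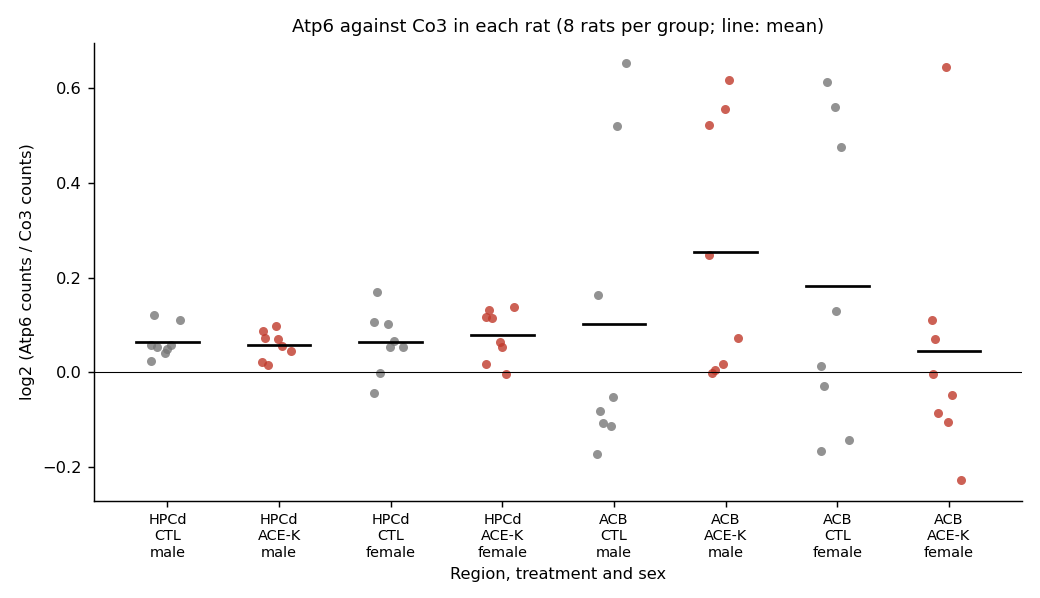
Log2 ratio of Atp6 to Co3 counts (vertical axis) in each rat, by region, treatment and sex, with the mean of 8 rats as a line. HPCd rats lie between -0.04 and 0.17, whereas the ACB holds 9 rats at 0.48 or above and 23 at 0.25 or below.

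Atp6 and Atp8 share a single mRNA, and their count ratio differed between the regions as well. Ambiguous reads where they overlap and the untested strand of the ACB counts apply to this ratio as stated above. ACB libraries held between 186 and 500 counts of Atp8. The log2 ratio of Atp6 to Atp8 counts was 1.12 ± 0.05 (SD, n = 32) in the HPCd, between 1.02 and 1.21. It was 1.99 ± 0.15 (SD, n = 32) in the ACB, between 1.70 and 2.41. The regions did not overlap in this ratio, nor in any of the 5 pairs that include Atp8, and 1 of the other 10 pairs, Co2 and Cytb, did not overlap either, so that 6 of 15 pairs were apart. The 5 pairs with Atp8 share that subunit and are not separate results. Pairs of other IDs were not examined, so there is no share to set beside 6 of 15. As CPM of the whole library, 76.2% of tested IDs did not overlap between the regions, but that is a measure of single IDs and not of ratios within a library. Within complex IV, the log2 ratio of Co1 to Co2 counts was 1.20 ± 0.06 (SD, n = 32) in the HPCd and 0.71 ± 0.13 (SD, n = 32) in the ACB, and the highest ACB rat, at 1.04, reached just past the lowest HPCd rat, at 1.02.

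Within groups, the subunits of a rat moved together in the HPCd. The SD of the log2 level of a subunit within groups was between 0.08 for Co3 and 0.11 for Atp8. The SD of its log2 ratio to the mean of the other 5 was smaller for each subunit, between 0.04 for Atp6 and 0.06 for Atp8. Counting error alone would give 0.0023 for Co1 and 0.0047 for Atp8, well under either spread. In the ACB the SD of the log2 level was between 0.23 for Cytb and 0.36 for Atp6, and between 0.17 and 0.26 without rat C106. The SD of the ratio to the other 5 was between 0.08 for Cytb and 0.19 for Co3, and stayed between 0.08 and 0.19 without rat C106. For Co3 without that rat, the spread of the ratio, 0.194, was as large as the spread of the level, 0.195. Counting error would give 0.04 for Co1 and 0.09 for Atp8 in the ACB. These spreads are given as descriptions, since the 6 levels of a rat come from 1 library.

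No relation was found between the share of counts on the 6 subunits in the HPCd of a rat and that in its ACB. The pairing rests on the rat numbers in the labels. Counts gave no support of their own for it, with 1 of 32 rats correlating best with itself. Over 32 rats Pearson's r was -0.10 (permutation p = 0.598, adjusted over 4 relations 0.598) and Spearman's rho was -0.01 (permutation p = 0.942, adjusted 0.942). Without the 2 rats farthest from the median HPCd share r was -0.07. Within the 4 groups of 8 rats, r ran from -0.46 in CTL males to 0.19 in ACE-K females. The HPCd share had r = -0.20 with the total counts of the library (permutation p = 0.282, adjusted 0.376; rho -0.23, permutation p = 0.212, adjusted 0.425) and r = 0.21 with the library number in the column names (permutation p = 0.240, adjusted 0.376; rho 0.17, permutation p = 0.353, adjusted 0.470). Leaving out the 2 farthest rats gave r = -0.21 for total counts and 0.21 for library number. Within groups these r ran from -0.75 to 0.12 for total counts and from -0.49 to 0.44 for library number. In the ACB the share had r = 0.47 with total counts (permutation p = 0.00825, adjusted 0.0330), while rho was 0.23 (permutation p = 0.207, adjusted 0.425). That relation rested on rat C106. Without it r was 0.20 (permutation p = 0.279), and without the 2 rats farthest from the median total r was 0.21. Within groups it was 0.90 in ACE-K males, which hold C106, and between -0.19 and 0.25 in the other 3.

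Outside the subunits, the 2 IDs whose levels followed the summed subunits most closely over the 32 rats were the same in both regions. In the HPCd, among 12282 IDs with a mean of at least 50 counts, ENSRNOG00000030644 had a Spearman's rho of 0.86 and ENSRNOG00000031033 one of 0.72. In the ACB, among 595 such IDs, ENSRNOG00000031033 had 0.89 and ENSRNOG00000030644 0.88, and without rat C106 they had 0.88 and 0.86. Next in the ACB, over all rats, came its 3 most counted IDs, at 0.80, 0.72 and 0.65. The least alike were ENSRNOG00000003567 in the HPCd, at -0.63, and ENSRNOG00000048353 in the ACB, at -0.65. The median over all IDs compared was 0.00037 in the HPCd and -0.03 in the ACB. These correlations share libraries and depth, and no p is given for them. The sources used here do not pair these IDs with names. IDs of other genes of the mitochondrial genome could therefore not be left out of those compared. Whether the 2 closest IDs are among them was not tested. Mean HPCd counts of these 2 were 1.85e+05 and 1.75e+05, where medians of the subunits lay between 92311 and 375739. If the 2 are mitochondrial, their match in both regions need not reach beyond mitochondrial RNA.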

How the data were processed

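Punches of the HPCd and ACB of 32 rats were sequenced as single reads of 75 cycles on an Illumina NextSeq after library preparation with a NuGen Universal Plus mRNA kit. Per the study's methods, the authors ran FastQC, trimmed with Trimmomatic, aligned to Rnor6.0 with STAR, counted reads per gene with HTSeq, and deposited 1 table of raw counts per region. Versions, annotation release and strand setting are not given in the sources used here. The 5 summary rows of HTSeq in the HPCd table, 20.9% to 24.8% of its reads per library, were left out. The authors removed 1 ACB sample of the ACE-K treatment, not named, whereas all 32 were kept here.

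Treatment was tested within each sex and region with edgeR 4.0.16 in R 4.3.3 (TMM, quasi-likelihood) over IDs that reached a normalized count of 5 in 3 or more rats. Fits over both sexes gave treatment, sex and their interaction, and a fit of all 64 libraries gave region, over IDs with a mean CPM of at least 5. P-values were adjusted by Benjamini and Hochberg over all tested IDs. The share of gene counts on the 6 subunits was compared by two-sided exact permutation tests, and relations across rats used 100000 permutations in SciPy 1.17.1. DESeq2 1.42.0 served as an alternative. Intervals of fold changes use the SE and degrees of freedom of the edgeR fit. The named IDs were the 6 subunits and at most 2 others per region and direction by Spearman's rho with their summed CPM. Only the 6 subunits were left out of that list, and IDs of other mitochondrial genes were not. Scripts were tested on simulated data.

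Libraries of the same rat pair the regions by animal, by the rat numbers in the labels. The correlation of a rat's deviations from its group means between the regions, over 5555 IDs, lay between -0.14 and 0.07 with a median of 0.0069, and 1 of 32 rats correlated best with itself. Random pairing would give as many on average, so the counts give no support of their own for the pairing. Rats of a region and group differed beyond sampling noise (chi-square per degree of freedom over all IDs at least 1.58). For the split among the 6 subunits alone the least was 8.59 in the HPCd and 0.275 in the ACB, where some rats did not differ beyond sampling noise. HPCd libraries held 14304052 to 28292936 gene counts and ACB libraries 255545 to 416869. The subunits and all lists were chosen with earlier results of these data known. Alternatives without all IDs of the mitochondrial genome and ratios to complex I could not be run, since the IDs could not be paired with genes, and the library number is not given for the ACB. TMM and a denominator without the 6 subunits, a denominator without the 3 most counted ACB IDs, and fits without rat C106 beyond those planned were added after seeing the data.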

Additional observations from a re-analysis of the deposited data

Results flagged for a closer look

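A rat was picked out where its gap to the nearest rat of its group of 8 exceeded 0.526 of the range of the group. Of 56 such groups examined, each for a single level or share, a rat was picked out in 7, and chance alone picks about 1 in 20 groups. Several of the 7 come from a single library, that of rat C106 in the ACB. Values of a library are not independent, so the 7 cannot be set against that rate. In the HPCd it was Atp6 of CTL male C101, at 8771 CPM, below 9738 to 10335 in the other 7. In ACB ACE-K males rat C106 was picked out for Co1 at 10660 CPM against 4215 to 6244, for Co2 at 5197 against 2330 to 3685, for Atp6 at 7623 against 2210 to 4052 and for the share of counts on the 6 subunits at 2.87% against 1.46% to 2.05%. In ACB CTL females rat C113 was picked out for that share, at 2.13% against 1.49% to 1.72%. In ACB ACE-K females rat C118 was picked out for Atp6, at 4161 CPM against 2595 to 3019. No interaction of treatment with sex passed for a subunit with the filter on low counts, beside 8.58% of tested IDs in the HPCd and 8.59% in the ACB. Without it 2 of 6 passed unadjusted in the ACB, beside 6.74% of IDs, and none passed at an adjusted p under 0.05.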

How the results depend on the processing

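Atp8 had as few as 186 counts per library in the ACB, where counting error gave an SD of 0.09 of its log2 level beside 0.27 in all. For treatment within each sex the number of subunits called stayed at 0 under DESeq2, DESeq2 size factors, total counts, other filters, a single fit of the 4 groups, TMM without the 6 and, in the HPCd, a library number covariate. For the fits over both sexes it stayed at 0 with DESeq2 size factors and total counts, and without rat C106 in the ACB. With no filter it rose in the ACB to 2 for the interaction of treatment with sex, beside 6.74% of IDs. It rose to 1 for sex, beside 5.05%, and none of these passed at an adjusted p under 0.05. For treatment with rats left out in turn it lay between 0 and 1 in ACB females, and at 0 in the other 3 comparisons. The 1 call, without rat C118, stood beside 7.56% of tested IDs. The region count was 4 with TMM, beside 91.5% of tested IDs. The paired fit with the rat as replicate block changed no call and also gave 4, beside 9708 of 10682 IDs. The region count was 6 with total counts beside 97.6%, with DESeq2 size factors beside 94.8% and with thinned HPCd counts beside 87.2%.

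Region differences changed sign with total counts for Co2 (-1.47), Co3 (-1.75) and Atp6 (-1.66), with DESeq2 size factors for Co2 (-0.14), Co3 (-0.42) and Atp6 (-0.32), and with thinned HPCd counts for Co1 (0.15) and Cytb (0.16). Co3 was at -0.013 in CTL rats alone and -0.014 without rat C106. The median of all tested IDs moved with the scaling, as given above.

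In ACB males the treatment estimates changed sign without rat C106 for Co2 (-0.12), Co3 (-0.11), Atp6 (-0.015), Atp8 (-0.064) and Cytb (-0.028), and with total counts for Co2 (-0.029) and Co3 (-0.019). With rats left out in turn they ranged from -0.120 to 0.074 for Co2, -0.111 to 0.108 for Co3, -0.015 to 0.312 for Atp6, -0.064 to 0.144 for Atp8 and -0.028 to 0.173 for Cytb, and from -0.012 to 0.055 for Co3 in ACB females. The difference in the share of counts was -0.059 points in ACB males without rat C106. With rats left out in turn it ranged from -0.059 to 0.143 points in ACB males, from -0.081 to 0.0097 in ACB females, from -0.121 to 0.00046 in HPCd males and from -0.163 to -0.028 in HPCd females. The correlation of ACB share with total counts was 0.20 without rat C106. None of these treatment values passed a test. The cause of these changes was not tested. Alternatives that need the IDs of the mitochondrial genome or of complex I, and the library number in the ACB, were not run.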
